A study of Mus musculus with 2 samples.

Results

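Envelope crosslinking and late suprabasal genes were examined in cultured keratinocytes of the K5.Pp6fl/fl and Pp6fl/fl genotypes. The set holds 10 of the 47719 genes in the deposited table and was chosen by name, with earlier results of these data known. It holds the transglutaminases Tgm1, Tgm3 and Tgm5, the plakins Evpl and Ppl, the envelope protein gene Cnfn and the protease gene Casp14. The genes of the secreted products Sbsn, Dmkn and Krtdap complete it. All 10 were found by Ensembl gene ID and symbol. RNA was sequenced from 1 culture per genotype. In K5.Pp6fl/fl mice, called cKO in the titles, the floxed alleles of Pp6 (Ppp6c in the table), which encodes the catalytic subunit of the serine/threonine phosphatase PP6, are deleted by a recombinase driven from the keratin 5 (K5) promoter, active in basal keratinocytes. Pp6fl/fl cells carry the floxed alleles without that driver. Both cultures were grown for 3 days in Medium 154CF from tail keratinocytes of C57BL/6J mice aged 8 weeks, and the labels do not say how many mice gave each culture.

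The cornified envelope is a sheath of crosslinked protein that replaces the plasma membrane of keratinocytes as they reach the epidermal surface. Envoplakin and periplakin line the membrane first, transglutaminases then join them and later precursors by bonds between glutamine and lysine side chains, and lipids are attached to the outer face. In the granular layer, where this happens, cells also secrete suprabasin, dermokine and the Krtdap product and make caspase-14, which takes part in breaking down filaggrin.

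Estimated reads in genes came to 17361257 in the K5.Pp6fl/fl library and 19374772 in the Pp6fl/fl library. A single library stood for each genotype, so no p-value was computed and no difference below has a replicate check. Levels are depth-scaled reads in CPM, on TMM-scaled library sizes. Folds set K5.Pp6fl/fl over Pp6fl/fl, and the interval after each is a Clopper-Pearson interval at 95%, conditional on the gene's reads in both libraries, which covers counting error only. Log2 ratios were taken after adding 0.5 CPM to both values, and a gene with at least 1 CPM in a library is called expressed. Ppp6c, the gene targeted for deletion, had 707 reads in the K5.Pp6fl/fl library and 1074 in the Pp6fl/fl library. Its level was 40.7 against 55.5 CPM, a fold of 0.733 (0.665 to 0.806). By FPKM it was at 16.8 in K5.Pp6fl/fl and 30.6 in Pp6fl/fl, a fold of 0.548 that lies outside that interval, with implied effective lengths of 2430 and 1812 bases. The table has no values per exon, so reads outside the deleted part count as well. How complete the deletion was in this culture was not tested.

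Every one of the 10 genes had a higher level in K5.Pp6fl/fl cells, by under 2-fold. The folds ran from 1.22 for Evpl to 1.66 for Casp14, and for 9 of the 10 the interval lay above 1. Those 9 were also at least 1.2-fold higher, while Tgm5 was too shallow to place. Of all 12325 expressed genes, 46.8% had a log2 ratio above 0, 16.6% had an interval above 1 and 9.23% met both that and a fold of 1.2. None of the 10 passed a rule of 2-fold, which asked for a log2 ratio of at least 1 in size and an interval that excludes 1, and which 1.01% of expressed genes passed, 0.811% in the higher direction. The median log2 ratio of the 10 was 0.39, against -0.01 over all expressed genes. Of the 6 genes that reached 50 CPM in a library, where counting error is small, all 6 were at least 1.2-fold higher. Among the 4538 expressed genes at that level 6.15% were, and 21.8% had an interval above 1. In bulk RNA, more cells of a type and more RNA per cell cannot be told apart.

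**Figure D1:**
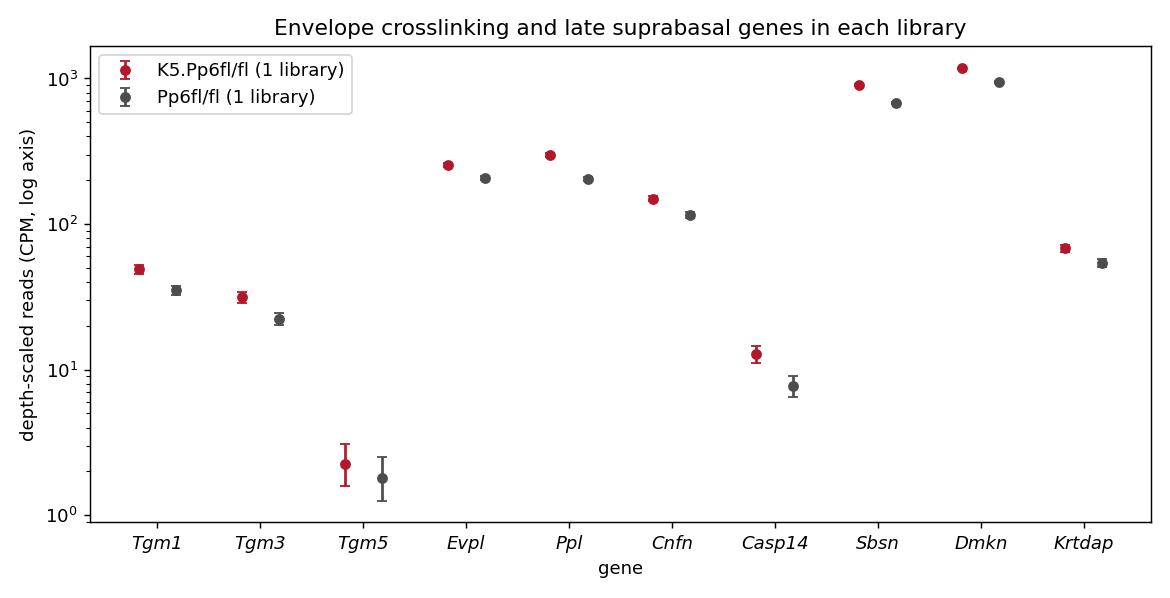
Depth-scaled reads (CPM, log axis) of each gene in the K5.Pp6fl/fl library (red, left of each pair) and the Pp6fl/fl library (grey, right), with exact Poisson 95% intervals of the counts. The red point is above the grey point for all 10 genes, from Tgm5 at 2.24 against 1.81 CPM to Dmkn at 1172 against 945 CPM, and the intervals overlap for Tgm5 but not for the other 9.

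The 10 genes summed to 2944 CPM in K5.Pp6fl/fl cells and 2273 CPM in Pp6fl/fl cells, a fold of 1.30 (1.28 to 1.31). They held 0.295% of the reads in K5.Pp6fl/fl cells and 0.227% in Pp6fl/fl cells. Sbsn and Dmkn gave most of that, with 70.6% of the set's reads in K5.Pp6fl/fl and 71.5% in Pp6fl/fl. Without them the other 8 genes summed to 864 CPM in K5.Pp6fl/fl and 648 CPM in Pp6fl/fl, a fold of 1.33 (1.30 to 1.37), so the sum did not rest on those abundant transcripts.

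Sbsn, Dmkn and Krtdap lie next to each other on chromosome 7, in an epidermal locus of secreted products, and their start regions are shown because the genes share position as well as direction. The sequences are RefSeq promoter windows of build GRCm38.p6, from 250 bases before to 50 after each annotated start, and Dmkn has a second start further down the gene. Capitals mark matches to TGANTCA, the core of the AP-1 binding motif, which reads alike on both strands.
Sbsn, GRCm38.p6 chr7:30751221-30751520, plus strand: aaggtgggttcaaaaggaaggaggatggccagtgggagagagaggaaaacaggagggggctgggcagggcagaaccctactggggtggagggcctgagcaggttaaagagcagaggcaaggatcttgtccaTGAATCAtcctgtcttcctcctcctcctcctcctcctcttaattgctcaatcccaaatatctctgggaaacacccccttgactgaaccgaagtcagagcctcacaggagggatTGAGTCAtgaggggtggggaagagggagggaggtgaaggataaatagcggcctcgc
Dmkn upstream start, GRCm38.p6 chr7:30763506-30763805, plus strand: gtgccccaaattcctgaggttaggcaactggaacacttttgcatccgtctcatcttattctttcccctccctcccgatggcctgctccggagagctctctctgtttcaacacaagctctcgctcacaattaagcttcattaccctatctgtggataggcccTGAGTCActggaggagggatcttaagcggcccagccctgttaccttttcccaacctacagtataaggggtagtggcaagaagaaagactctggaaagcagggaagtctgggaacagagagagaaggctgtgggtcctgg
Dmkn downstream start, GRCm38.p6 chr7:30776155-30776454, plus strand: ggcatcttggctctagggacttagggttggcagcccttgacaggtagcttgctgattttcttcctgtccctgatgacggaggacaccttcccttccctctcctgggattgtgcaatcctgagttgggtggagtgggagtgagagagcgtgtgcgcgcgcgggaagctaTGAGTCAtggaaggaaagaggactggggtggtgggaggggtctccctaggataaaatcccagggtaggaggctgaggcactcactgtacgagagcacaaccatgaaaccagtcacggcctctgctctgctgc
Krtdap, GRCm38.p6 chr7:30787655-30787954, plus strand: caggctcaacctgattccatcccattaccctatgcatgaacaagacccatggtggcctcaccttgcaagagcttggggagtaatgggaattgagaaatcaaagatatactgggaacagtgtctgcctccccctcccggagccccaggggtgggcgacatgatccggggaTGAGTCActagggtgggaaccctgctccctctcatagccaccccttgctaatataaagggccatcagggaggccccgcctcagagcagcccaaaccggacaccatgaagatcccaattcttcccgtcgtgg
Every one of these 4 windows held TGAGTCA, at position -6 from the start of Sbsn, -89 and -82 from the upstream and downstream starts of Dmkn and -81 from the start of Krtdap. Sbsn held a further TGAATCA at -119. Among the 8 genes of the set with a window in the RefSeq table, these 3 matched TGANTCA, and Tgm1, Tgm3, Tgm5, Cnfn and Casp14 did not. Over all 27025 genes in the table, 8.97% had a match in at least 1 window, and 7.81% of 32851 windows held one. A match is a run of letters and says nothing of binding in these cells. The other motifs searched, also on both strands, were GGGCGG (Cnfn and Tgm1; 38.2% of all genes), TATAAA (Krtdap and Tgm3; 15.7%), TTNNGCAA (Dmkn, Sbsn, Tgm1 and Tgm3; 12.2%) and AACCNGGTT (none of the 8; 0.315%). No other motif overlapped a TGANTCA match.

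Transglutaminases form the bonds of the envelope, and the 2 that were well covered were higher to about the same extent. Tgm1, the membrane-anchored enzyme of the upper epidermis whose loss causes lamellar ichthyosis in humans, had 850 reads in K5.Pp6fl/fl and 677 in Pp6fl/fl, or 48.9 against 35.0 CPM. Its fold was 1.4 (1.26 to 1.55). Tgm3, a soluble zymogen that is activated by proteolysis, had 547 reads in K5.Pp6fl/fl and 431 in Pp6fl/fl, or 31.5 against 22.3 CPM, a fold of 1.41 (1.24 to 1.61). The ratio of Tgm1 to Tgm3 reads was therefore close in both libraries, with a K5.Pp6fl/fl over Pp6fl/fl fold of 0.989 (0.839 to 1.17). Per length, Tgm1 was 2.42 times Tgm3 in K5.Pp6fl/fl and 2.45 times in Pp6fl/fl by FPKM.

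Tgm5, the transglutaminase that is mutated in human acral peeling skin syndrome, was the least abundant of the set. It had 39 reads in K5.Pp6fl/fl and 35 in Pp6fl/fl, or 2.24 against 1.81 CPM. Its fold of 1.24 had an interval of 0.766 to 2.02, so at this depth neither equality nor a 2-fold difference could be told from the measured value. In the rest of the family, Tgm6, a relative better known from the nervous system, had 199 reads in K5.Pp6fl/fl and 162 in Pp6fl/fl, a fold of 1.37 (1.11 to 1.69). Tgm2, the widely expressed tissue transglutaminase, had 5 reads in each library, and F13a1, the coagulation factor XIII subunit, had 5 in K5.Pp6fl/fl and 10 in Pp6fl/fl. Tgm7 had 1 read in K5.Pp6fl/fl and is listed at 0 in Pp6fl/fl, and Tgm4, F13b and Epb42 are listed at 0 in both. Of 10 family members measured, 4 were expressed, and 3 of these were at least 1.2-fold higher, against 9.23% of expressed genes. These 3 were Tgm1 and Tgm3, which belong to the set, and Tgm6.

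Envoplakin and periplakin are thought to form the first scaffold of the envelope together as a heterodimer, and their genes differed from each other. Ppl had 5182 reads in K5.Pp6fl/fl and 3930 in Pp6fl/fl, or 298 against 203 CPM, a fold of 1.47 (1.41 to 1.53). Evpl had 4412 reads in K5.Pp6fl/fl and 4036 in Pp6fl/fl, or 254 against 209 CPM, a fold of 1.22 (1.17 to 1.27), the lowest of the set. Per length the genes were level in Pp6fl/fl and not in K5.Pp6fl/fl. The Ppl to Evpl ratio of FPKM was 1.196 in K5.Pp6fl/fl, from 50.01 FPKM of Ppl and 41.8 of Evpl, and 0.991 in Pp6fl/fl, from 33.9 FPKM of Ppl and 34.2 of Evpl. The fold of the read ratio between the libraries was 1.21 (1.14 to 1.28), a difference beyond counting error.

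The other plakin genes were level or lower in K5.Pp6fl/fl. Dsp, the desmosomal linker desmoplakin, stood at 6596 CPM in K5.Pp6fl/fl and 6471 CPM in Pp6fl/fl, a fold of 1.02 (1.01 to 1.03). Dst, whose epidermal product BP230 anchors keratin at the hemidesmosome of basal cells, was lower, at 1710 against 2211 CPM, a fold of 0.773 (0.762 to 0.785). Plec, plectin, also of the hemidesmosome, was at 1894 CPM in K5.Pp6fl/fl and 2242 CPM in Pp6fl/fl, a fold of 0.845 (0.833 to 0.857). Macf1, a linker of actin and microtubules, had a log2 ratio of -0.03 by counts and 0.01 by FPKM, so its direction depends on the measure. Over the 6 plakins measured, 3 intervals lay above 1 and 3 below, against 16.6% and 17.4% of expressed genes, with a median log2 ratio of 0.00.

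Cnfn encodes cornifelin, a small component of the envelope. It had 2587 reads in K5.Pp6fl/fl and 2235 in Pp6fl/fl, or 149 against 116 CPM, a fold of 1.29 (1.22 to 1.36).

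Casp14, the caspase largely restricted to cornifying epithelia, had the highest fold of the set. It had 222 reads in K5.Pp6fl/fl and 149 in Pp6fl/fl, or 12.8 against 7.70 CPM, a fold of 1.66 (1.34 to 2.05). The interval lay wholly above those of Evpl and Dmkn but overlapped those of the other 7 genes. By log2 ratio, 2.42% of expressed genes were higher than Casp14, which ranked at 299, while 13.5% were higher than Tgm5, the lowest log2 ratio of the set. Among the 9 expressed caspases the median log2 ratio was 0.12, of which 2 passed the 1.2-fold rule as higher and 1 as lower, against 9.23% and 6.32% of expressed genes. That median was 0.072 with a floor of 5 CPM and 0.23 with none. Casp8, the initiator caspase of death receptors, was the other one that was higher, at 52.4 CPM in K5.Pp6fl/fl and 41.2 CPM in Pp6fl/fl, a fold of 1.27 (1.15 to 1.4). Casp9, the initiator of the mitochondrial pathway, was lower at 0.8 (0.683 to 0.937), and Casp2 was at 0.95 (0.845 to 1.07).

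**Figure D2:**
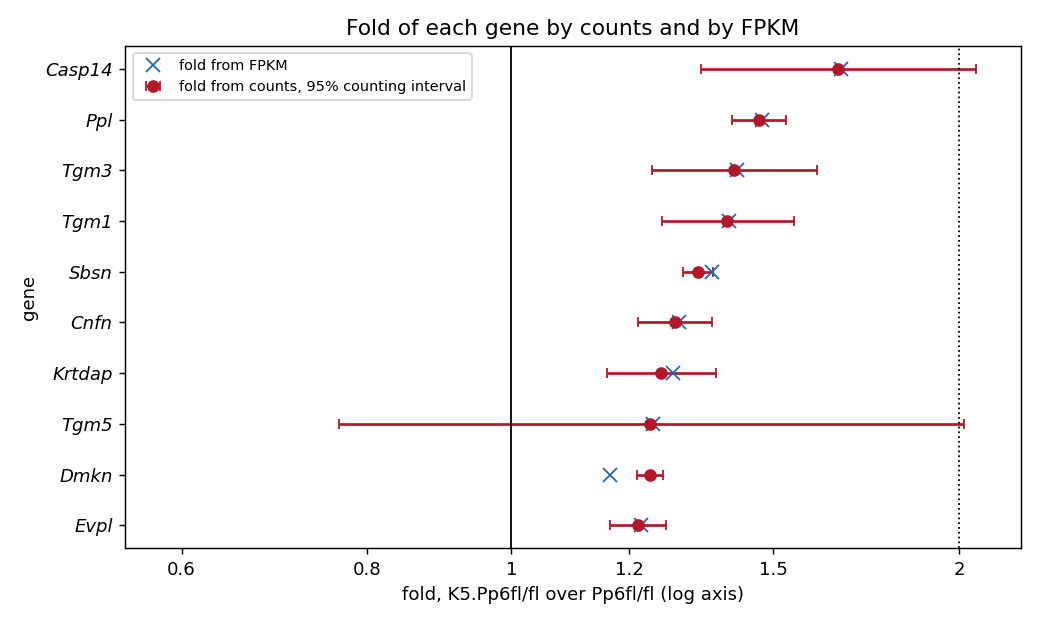
Fold of each gene, K5.Pp6fl/fl over Pp6fl/fl, on a log axis, from counts (red, with 95% counting interval) and from the authors' FPKM (blue crosses), ordered from the highest fold by counts at the top. The solid line marks equality and the dotted line 2-fold. Only the Tgm5 interval crosses equality, and Dmkn is the gene whose FPKM fold of 1.17 lies outside its interval from counts.

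Among the secreted products, Sbsn and Dmkn gave the most abundant transcripts of the set. Sbsn had 15770 reads in K5.Pp6fl/fl and 13148 in Pp6fl/fl, or 907 against 679.5 CPM, a fold of 1.34 (1.30 to 1.37). Dmkn had 20376 reads in K5.Pp6fl/fl and 18287 in Pp6fl/fl, or 1172 against 945 CPM, a fold of 1.24 (1.22 to 1.27). Krtdap, whose small product marks differentiating keratinocytes, had 1188 reads in K5.Pp6fl/fl and 1048 in Pp6fl/fl, or 68.3 against 54.2 CPM, a fold of 1.26 (1.16 to 1.37). The intervals of Krtdap and each of the other two overlapped. The ratio of Dmkn to Sbsn reads was lower in K5.Pp6fl/fl than in Pp6fl/fl, with a fold of 0.929 (0.901 to 0.958), whereas that of Sbsn to Krtdap had a fold of 1.06 (0.97 to 1.15).

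The neighbours of these 3 genes were then read in chromosome order, over 8 protein-coding genes to each side, a window chosen with the data at hand. Of the 16 neighbours 5 were expressed, and none of the 5 passed the 1.2-fold rule as higher, against 9.23% of expressed genes. A count over 5 genes is too small to set apart from that share. Gapdhs, the sperm type of the glycolytic enzyme GAPDH and the gene beside Sbsn, had 196 reads in K5.Pp6fl/fl and 271 in Pp6fl/fl, a fold of 0.805 (0.666 to 0.971). The intervals of Tmem147, Haus5, Rbm42 and Usf2 included 1, with folds of 0.997, 1.07, 0.959 and 1.02. The 5 had a median log2 ratio of 0.00. The Sbsn model overlaps Tmem147os on the same strand, which had 10 reads in K5.Pp6fl/fl and 17 in Pp6fl/fl, and the Sbsn log2 ratio was 0.42 with and without them.

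**Figure D3:**
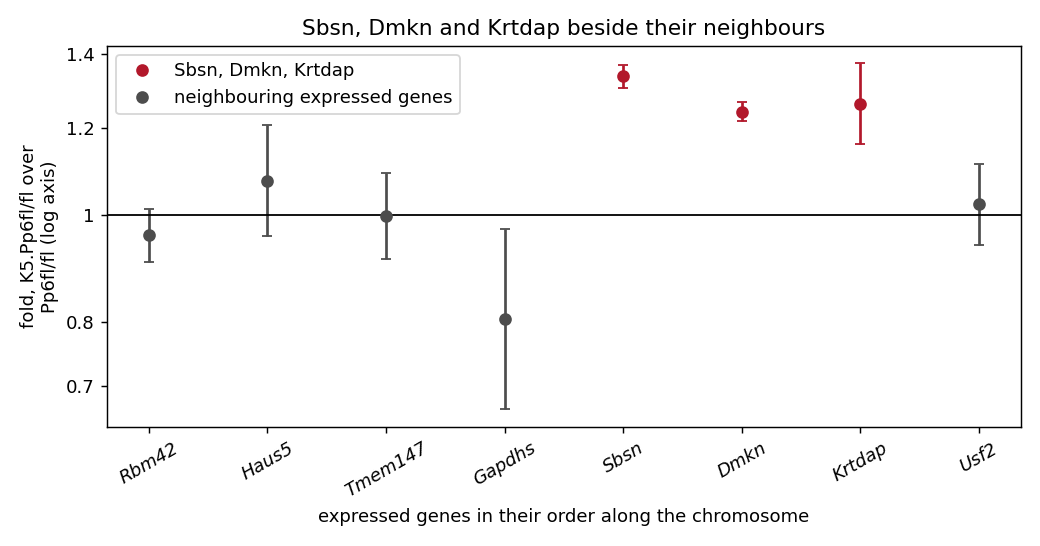
Fold, K5.Pp6fl/fl over Pp6fl/fl (log axis), with 95% counting intervals, of the expressed protein-coding genes around Sbsn, Dmkn and Krtdap, spaced evenly in their order along the chromosome. The 3 red points lie between 1.24 and 1.34, and the 5 grey neighbours between 0.805 and 1.07.

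Dmkn was the gene of the set for which reads and FPKM differed most. By FPKM it was at 1368 in K5.Pp6fl/fl and 1174 in Pp6fl/fl, a fold of 1.17, against 1.24 by counts. FPKM divides reads by an effective length that follows the mix of isoforms, and the length implied by the deposited columns was 858 bases in K5.Pp6fl/fl and 804 in Pp6fl/fl. Relative to the median gene that is a ratio of 1.07, and 20.9% of the 10682 genes with at least 50 reads in both libraries had a larger shift in either direction. The annotation (GENCODE M21) holds 5 coding transcripts of Dmkn from the upstream part, of 977 to 2063 bases, and 1 of 662 bases from the downstream start. The read share of each was not analysed here. Sbsn, with coding transcripts of 432 to 2221 bases, had a ratio of 0.982 and Krtdap one of 0.987, and the other 7 genes lay between 0.998 and 1.001.

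Ordered by level per length, the set kept its order in both libraries but for the plakins. Dmkn, given above, was followed by Sbsn at 1193 FPKM in K5.Pp6fl/fl and 874 FPKM in Pp6fl/fl. Krtdap came next at 561 FPKM in K5.Pp6fl/fl and 437 in Pp6fl/fl, and then Cnfn at 511 FPKM in K5.Pp6fl/fl and 394 in Pp6fl/fl. After the plakins came the enzymes, so the transcripts of secreted and small envelope proteins led the set on this scale. Tgm1 was at 19.9 FPKM in K5.Pp6fl/fl and 14.2 in Pp6fl/fl, and Tgm3 at 8.23 FPKM in K5.Pp6fl/fl and 5.80 in Pp6fl/fl. Casp14 was at 6.32 FPKM in K5.Pp6fl/fl and 3.80 in Pp6fl/fl, and Tgm5 at 0.974 FPKM in K5.Pp6fl/fl and 0.782 in Pp6fl/fl. The FPKM of the shortest genes leans on a small divisor, since Krtdap has coding transcripts of 323 to 470 bases and an implied effective length of only 122 in K5.Pp6fl/fl and 124 in Pp6fl/fl.

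In the authors' deposited table, the log2 fold changes of the 10 genes were all above 0, from 0.22 for Dmkn to 0.72 for Casp14. The authors' deposited table marks none of the 10 as significant, and the 170 genes that it does mark have log2 fold changes of at least 1.01 in size. The authors also list an FDR for each gene, which is not counted here. The FDR values of the authors' deposited table come from a single library of each genotype, and no source used here gives the spread they assume.

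**Figure D4:**
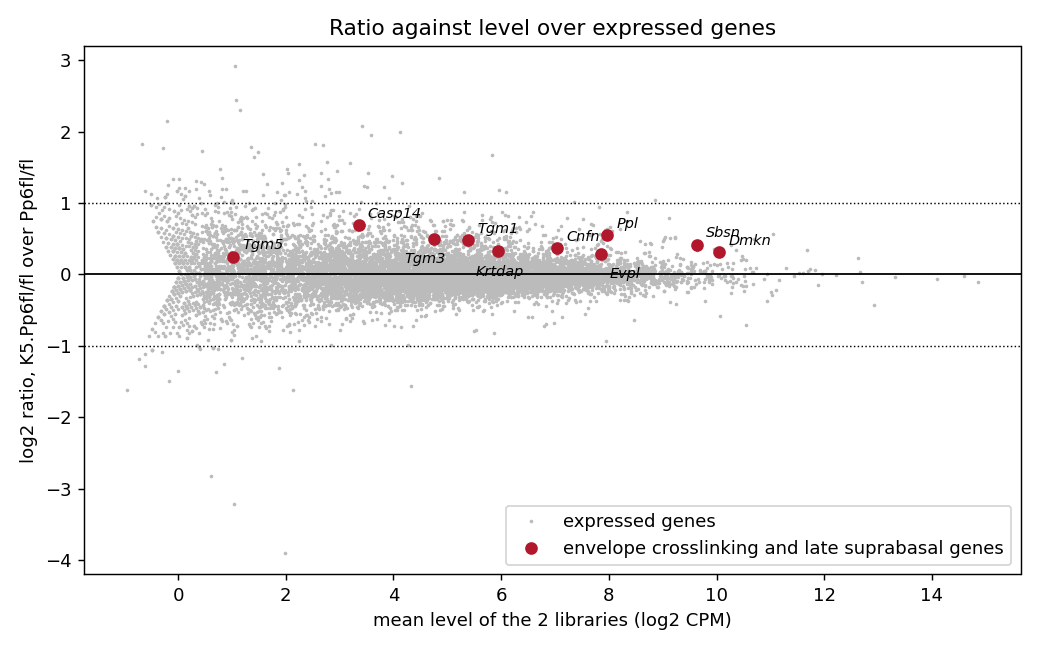
Log2 ratio, K5.Pp6fl/fl over Pp6fl/fl, against the mean level in log2 CPM for the 12325 expressed genes (grey), with the 10 genes in red. The solid line marks equality and the dotted lines 2-fold. The red points lie above 0 and below the 2-fold line at every level. Among the abundant genes, Ppl lies at 0.55, Sbsn at 0.42 and Dmkn at 0.31.

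The proteins that transglutaminases join were set beside the enzymes. Of 27 expressed substrate genes, 14 passed the 1.2-fold rule as higher in K5.Pp6fl/fl and 1 as lower, against 9.23% and 6.32% of expressed genes. Their median log2 ratio was 0.38. The 4 that passed the 2-fold rule as higher, against 0.811% of expressed genes, were Sprr2a1, Lor, Lce3d and Flg2. Lor, loricrin, the main protein of the mature envelope, had 186 reads in K5.Pp6fl/fl and 88 in Pp6fl/fl, a fold of 2.35 (1.82 to 3.07). Lce3d, a late envelope gene, had 3804 reads in K5.Pp6fl/fl and 2094 in Pp6fl/fl, a fold of 2.02 (1.92 to 2.13). Sprr2a1, a small proline-rich precursor, was at 3.24 (2.93 to 3.59), a value to be read as uncertain, because it is 1 of several similar Sprr2a genes and the split of reads among them was not examined. Flg2, a filaggrin relative, rested on 35 reads in K5.Pp6fl/fl and 10 in Pp6fl/fl, at 3.90 (1.89 to 8.82), and is named because it completes the 4.

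Other substrates were nearer to the crosslinking genes in size or went the other way. Ivl, involucrin, an early precursor named after its value was seen, was at 58.5 CPM in K5.Pp6fl/fl and 45.1 CPM in Pp6fl/fl, a fold of 1.30 (1.18 to 1.42), inside the range of the crosslinking genes. Anxa1, the membrane-binding annexin that is also crosslinked into envelopes, was at 1947 against 1377 CPM, a fold of 1.41 (1.39 to 1.44). The one that was lower was Krt10, the keratin of spinous cells, named after its value was seen, at 16.1 CPM in K5.Pp6fl/fl and 20.9 CPM in Pp6fl/fl, a fold of 0.770 (0.658 to 0.898).

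Proteases and inhibitors that act on transglutaminases, caspase-14 or filaggrin had a median log2 ratio of 0.16 over 16 expressed genes. Of these, 6 were at least 1.2-fold higher and 0 lower, against 9.23% and 6.32% of expressed genes. By FPKM the median was 0.26, and 0.27 when centred on the median gene. Ctsl, cathepsin L, which activates transglutaminase 3 and is held in check by the product of Cst6, was at 702 CPM in K5.Pp6fl/fl and 494 CPM in Pp6fl/fl, a fold of 1.42 (1.38 to 1.46). Cst6, cystatin M/E, was at 40.5 against 23.6 CPM, a fold of 1.72 (1.53 to 1.94). The enzyme and its inhibitor were thus both higher. Ctsd, cathepsin D, which has been tied to transglutaminase 1 activation, was at 687 against 587 CPM, a fold of 1.17 (1.14 to 1.2). Asprv1, the retroviral-like protease that cuts profilaggrin, was at 189 CPM in K5.Pp6fl/fl and 109 CPM in Pp6fl/fl, a fold of 1.73 (1.64 to 1.83). Spink5, the inhibitor of epidermal kallikreins, was at 417 against 227 CPM, a fold of 1.84 (1.77 to 1.91).

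**Figure D5:**
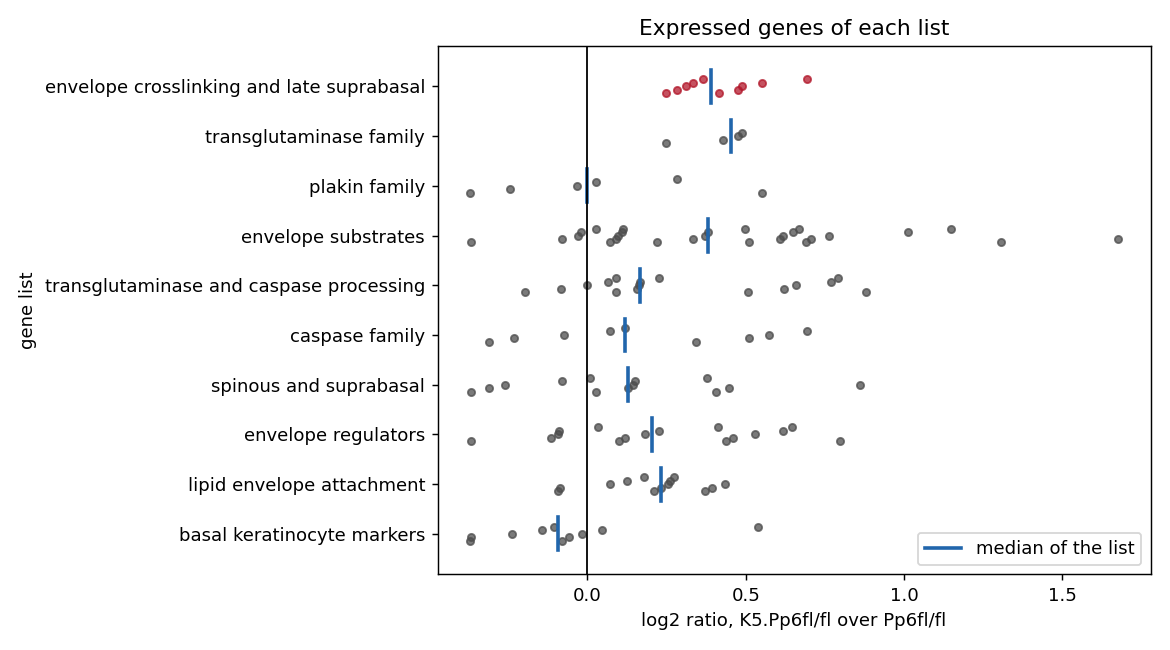
Log2 ratio, K5.Pp6fl/fl over Pp6fl/fl, of the expressed genes in each list, 1 point per gene with the list's median as a blue bar; some genes belong to more than 1 list. The 10 envelope crosslinking and late suprabasal genes (top row, red) run from 0.25 to 0.69, and the 4 expressed transglutaminases also lie above 0, while each of the other 8 lists has genes on both sides of 0.

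Lipid attachment genes, which build the lipid layer on the envelope, had a median log2 ratio of 0.23 over 13 expressed genes. The 1.2-fold rule was passed by 5 as higher and 0 as lower, against 9.23% and 6.32% of expressed genes. The lamellar body transporter gene Abca12 was at 1.35 (1.30 to 1.41), the ceramide synthase gene Cers3 at 1.32 (1.22 to 1.42) and Sdr9c7, an oxidoreductase of the lipid envelope, at 1.30 (1.13 to 1.49). The elongase gene Elovl1 was at 0.938 (0.877 to 1.004).

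Transcription factors that regulate these programmes were mixed. Of 16 expressed, 7 passed the 1.2-fold rule as higher and 1 as lower, against 9.23% and 6.32% of expressed genes. Their median log2 ratio was 0.20. Hopx, a homeodomain cofactor of late differentiation, was at 102 CPM in K5.Pp6fl/fl and 58.5 CPM in Pp6fl/fl, a fold of 1.75 (1.62 to 1.88). Zfp750 and Prdm1, which act in the granular layer, were at 1.57 (1.45 to 1.69) and 1.54 (1.42 to 1.67). The one that was lower was Trp63, the p63 gene of basal cells, at 773 against 996 CPM, a fold of 0.776 (0.759 to 0.793). Klf4, a factor of barrier formation, was at 0.940 (0.907 to 0.974).

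Earlier suprabasal genes went both ways. Over 13 expressed spinous and suprabasal genes the median log2 ratio was 0.13, and 4 passed the 1.2-fold rule as higher and 3 as lower, against 9.23% and 6.32% of expressed genes. That median was 0.078 with a floor of 5 CPM and 0.079 by FPKM. The desmoglein gene Dsg1b was at 1.37 (1.29 to 1.45), the receptor gene Notch3 at 1.33 (1.14 to 1.56) and the fatty acid binding protein gene Fabp5 at 1.30 (1.23 to 1.38). The most abundant, Sfn (14-3-3 sigma) and the galectin gene Lgals7, were at 1.005 (0.994 to 1.01) and 1.11 (1.08 to 1.13). The 3 that were lower, named after their values were seen, were Krt10, given above, Calml3 and Ly6g6c. Calml3 was at 0.799 (0.653 to 0.975) and Ly6g6c at 0.832 (0.744 to 0.930). Whether the late and the earlier genes differ as groups was not tested.

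Markers of other cell states and types were read beside these values. Of 10 basal keratinocyte markers, all expressed, 7 had an interval below 1 and 2 above, against 17.4% and 16.6% of expressed genes, and their summed level was 57347 CPM in K5.Pp6fl/fl and 61646 CPM in Pp6fl/fl. Krt14 and Krt5, the most abundant of the list, made up most of that sum. They stood at 28559 and 17100 CPM in K5.Pp6fl/fl, against 30702 and 17801 CPM in Pp6fl/fl. Their folds were 0.930 (0.927 to 0.934) and 0.961 (0.956 to 0.965). The 2 above 1, named after their values were seen, were Krt15 and Lamb3. Krt15, also a keratin, was at 1.515 (1.11 to 2.08), from 98 reads in K5.Pp6fl/fl and 72 in Pp6fl/fl. Lamb3 was at 1.03 (1.01 to 1.06). Of 7 melanocyte markers 5 were expressed and 3 had an interval above 1, against 16.6% of expressed genes. The summed level of the list was 21.7 CPM in K5.Pp6fl/fl and 14.7 CPM in Pp6fl/fl. The most abundant were Mitf at 0.900 (0.694 to 1.17) and Tyrp1 at 1.99 (1.39 to 2.90). Of 8 hair follicle and sebocyte markers 4 were expressed. Among these, 3 had an interval above 1 and 1 below, against 16.6% and 17.4% of expressed genes. The list summed to 718 CPM in K5.Pp6fl/fl and 696 CPM in Pp6fl/fl. The most abundant were Sox9 at 0.948 (0.920 to 0.978) and Scd1 at 1.102 (1.05 to 1.15). The other two, named after their values were seen, were both higher. Krt75, a keratin of the follicle's companion layer, had 1089 reads in K5.Pp6fl/fl and 712 in Pp6fl/fl, a fold of 1.70 (1.55 to 1.87), and Lgr5, a receptor of follicle stem cells, had 21 in K5.Pp6fl/fl and 9 in Pp6fl/fl, at 2.60 (1.14 to 6.44). The list's median log2 ratio of 0.45 was 0.14 with a floor of 5 CPM, with no floor and by FPKM. None of the 7 fibroblast, 7 immune or 5 endothelial markers was expressed, with 16, 1 and 26 reads over each list in K5.Pp6fl/fl and 16, 1 and 19 in Pp6fl/fl. The immune markers Ptprc, Cd3e, Cd207, Cd74, Lyz2 and Itgax, the fibroblast marker Lum and the endothelial marker Emcn are listed at 0 in both libraries. The part of the basal, melanocyte and hair follicle differences in the values of the late genes was not tested.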

How the data were processed

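Polyadenylated RNA of 2 keratinocyte cultures, 1 per genotype, was sequenced from TruSeq libraries, which carry no strand mark, per the labels' protocols. The submitters' processing notes list RSEM, edgeR and build mm8, with no role or version. The aligner, annotation release and filters were not stated in any source used here. The authors deposited estimated counts, FPKM, log2 fold changes, p-values and FDR for 47719 genes, per the file headers. The design had assumed unscaled counts, but each deposited count column is a multiple of 1 step: after division by it, 97.4% of the values under 100 reads in either column were whole within 0.01 reads, and sums of 17361257 (K5.Pp6fl/fl) and 19374772 (Pp6fl/fl) estimated reads were obtained. Counts were then rounded. FPKM served for levels per length.

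TMM scaling used edgeR 4.0.16 in R 4.3.3, with factors of 1.0013098 for K5.Pp6fl/fl and 0.99869187 for Pp6fl/fl. Symbols were matched by ID for 47219 genes. The RefSeq and GENCODE references are of GRCm38, not the named build, and served for symbols, gene order, transcript lengths and the promoter windows. A gene was called past a fold (2 or 1.2) when it reached it, had at least 1 CPM in a library and an interval that excluded 1; the 2-fold rule was read on the log2 ratio. The interval and the 2-fold calls were checked on simulated counts that held counting error only, the error that the interval assumes. That check could not show how far cultures differ, and the 1.2-fold rule was not part of it. The genes and lists were chosen with earlier results of these data known. Named genes are Ppp6c, the 10 genes, and in each list the 3 largest log2 ratios among genes at 5 CPM or more whose interval excluded 1 and the 2 most abundant (markers: the latter only). The other transglutaminase relatives, Macf1, Flg2, Ivl, Krt10, Krt15, Lamb3, Krt75, Lgr5, the chromosome neighbours and the markers listed at 0 were named outside that rule, after their values were seen. So were Calml3 and Ly6g6c. Eppk1 of the plakin list was not analysed here. Alternatives covered scaling, pseudocount, floor, interval, FPKM, deposited counts, overlapping genes and library size.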

Additional observations from a re-analysis of the deposited data

How the results depend on the processing

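Across 13 other settings, the log2 ratios of the 10 genes gave 127 values, from 0.16 (Tgm5 with a pseudocount of 2 CPM) to 0.72, none of them below 0; 124 lay within the main counting interval and 3, of Sbsn and Dmkn by FPKM, outside it. The number at least 1.2-fold higher was 9 in all but FPKM, where it was 8, because Dmkn fell short at 1.17-fold and Tgm5 was under the floor of 1 FPKM. Their summed fold of 1.30 became 1.265 with FPKM and 1.274 with FPKM centred on the median gene. The counts over all genes moved more. With a pseudocount of 0.1 CPM 173 genes were 2-fold higher and 57 lower, with 2 CPM 33 and 5, with a floor of 5 CPM 49 and 4, with FPKM 232 and 140 and with centred FPKM 240 and 136, against 100 and 24. At 1.2-fold, FPKM gave 1972 higher and 1715 lower and centred FPKM 2044 and 1633, against 1137 and 779; the FPKM settings ask for no counting interval. With an interval at 99%, 1397 genes lay below 1, against 2149 at 95%. Macf1 changed sign with FPKM (log2 ratio 0.0082) and centred FPKM (0.0185). The melanocyte median log2 ratio of 0.87 became -0.14 with a floor of 5 CPM, where Mitf alone was left. The cause of the other shifts was not tested. Depth limits Tgm5 and the relatives with under 40 reads. No paired analysis was possible because there is 1 library per genotype.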

Other observations

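Peptidylarginine deiminases turn arginine of filaggrin and keratins into citrulline before filaggrin is broken down, and their genes were nearly silent here. Padi1 and Padi2 are listed at 0 in both libraries and Padi3 had 1 read in each. Padi4, better known from neutrophils, had 16 reads in the K5.Pp6fl/fl library and 1 in the Pp6fl/fl library, a ratio of 17.8 with a counting interval of 2.77 to 747, at 0.920 CPM in K5.Pp6fl/fl and so under the floor for an expressed gene. Filaggrin itself, Flg, had 74 reads in K5.Pp6fl/fl and 49 in Pp6fl/fl, a fold of 1.68 (1.16 to 2.46), close to that of Casp14. These genes were chosen after their values were seen.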
